A study of Mus musculus with 13 samples.

Results

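The miRNAs examined here are mmu-miR-146a-5p, mmu-miR-146b-5p and mmu-miR-155-5p, which were chosen by name as miRNAs known to respond to the transcription factor NF-κB, and which are 3 of the 1079 mouse miRNAs of the array. They were measured in RNA from 13 flank tumors of male C57BL/6 mice. All tumors grew from B78H1 cells, an amelanotic melanoma line cloned from B16 that carries no MHC class I on its surface, injected under the skin of both flanks. In the curcumin group, 7 tumors came from mice that ate chow with 4% curcumin, beginning 14 days before the injection and lasting until the tumors were taken after 28 days. In the control group, 6 tumors came from mice on standard chow of the same batch. The tumor cells of both groups were thus 1 line, and the age of the mice and the cage of each mouse are not given in the sources used here. The labels do not tie a tumor to a mouse, so the p-values below measure the spread between these 13 tumors. The RNA was that of whole tumor pieces, in which fewer cells of a type and less RNA per cell cannot be told apart. The study reports that, at the end of growth, tumors of curcumin-fed mice were markedly smaller in volume than those of controls. The groups thus differed in tumor size as well as in diet, and the part of tumor size in the differences below was not tested.

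NF-κB is switched on by Toll-like receptors, the interleukin-1 receptor and the tumor necrosis factor receptor, and turns on genes of inflammation. Among them are the genes of miR-146a and miR-155, which are abundant in activated macrophages and lymphocytes. miR-146a and its close relative miR-146b repress the signaling proteins TRAF6 and IRAK1 and so dampen the pathway that induces them, whereas miR-155 represses brakes of inflammation such as the phosphatase SHIP1 and the cytokine inhibitor SOCS1. Curcumin, the yellow polyphenol of turmeric, is known as an inhibitor of NF-κB in cultured cells, and the comparison of the diets shows how these miRNAs stood in tumors of curcumin-fed mice.

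The mature sequences are shown because the array has to tell a pair of nearly equal miRNAs apart. They are the RefSeq records of assembly GRCm38.p6, in which all 3 were found by name, written 5′ to 3′ with the seed, bases 2 to 8, in capitals.
mmu-miR-146a-5p: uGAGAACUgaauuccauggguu
mmu-miR-146b-5p: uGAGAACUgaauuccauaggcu
mmu-miR-155-5p: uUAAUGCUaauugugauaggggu
The miR-146 miRNAs share their seed and 20 of 22 bases, and differ by the substitutions G18A and U21C, counted from the 5′ end and written from miR-146a-5p to miR-146b-5p. miR-155-5p, with 23 bases, has another seed. No other mature miRNA among the 1679 of the table carries either seed. They come from 3 chromosomes. miR-146a-5p lies at chr11:43374435-43374456 on the minus strand in Mir146, miR-146b-5p at chr19:46342790-46342811 on the plus strand in Mir146b, and miR-155-5p at chr16:84714143-84714165 on the plus strand in Mir155. Mir155 lies within its host transcript Mir155hg and Mir146b overlaps the gene model Gm36493, whereas Mir146 overlaps no other gene of the table.

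On the array each of these miRNAs had 2 probes with 20 spots each. The signals of both probes were summed, quantile normalized over the 13 arrays and put on the log2 scale, so every level below is relative to the other miRNAs of the same array and has no absolute unit. Each of them was detected in every one of the 13 tumors, and their spots were not saturated. Over all mouse miRNAs the summed signal of an array lay between 114095 and 281508 in curcumin tumors and between 150272 and 244666 in controls, with 272 to 370 and 313 to 412 miRNAs detected. The arrays lay on 2 slides. On both slides the controls lay on the first line of array positions and the curcumin tumors on the second, so position and diet cannot be told apart.

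All 3 miRNAs were higher in curcumin tumors, miR-146b-5p by 8.07-fold, miR-155-5p by 3.35-fold and miR-146a-5p by 2.11-fold (limma, adjusted p over all 1079 miRNAs below the threshold of 0.05 for each). The same test called 8.34% of all mouse miRNAs higher and 7.51% lower, and of the 243 miRNAs detected on all arrays 20.2% were higher. Among the 49 miRNAs that were both detected on all arrays and higher, ranked by the size of the log2 difference, miR-146b-5p was 1st, miR-155-5p 15th and miR-146a-5p 31st.

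The log2 level of miR-146a-5p, a brake of Toll-like receptor signaling, ranged from 6.54 to 7.62 in the 7 curcumin tumors (median 6.89) and from 5.10 to 6.42 in the 6 controls (median 6.03). The groups did not overlap, but only 0.12 lay between the lowest curcumin tumor, number 3, and the highest control, number 3. The means were 6.95 ± 0.36 (SD, n = 7) and 5.88 ± 0.55 (SD, n = 6). The log2 difference was 1.08 (SE 0.25, 95% interval 0.53 to 1.63, fold interval 1.44 to 3.09). The limma adjusted p was 0.0150, and the two-sided exact permutation p was 0.000583, the smallest that the 1716 splits can give.

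The log2 level of miR-146b-5p ranged from 4.61 to 7.62 in curcumin tumors (median 6.59) and from 2.49 to 4.73 in controls (median 3.15). In curcumin tumors 6 of 7 values lay at 5.90 or above, and 4 of 6 controls lay at 3.24 or below. Curcumin tumor 5, at 4.61, fell just below control 6, at 4.73, and these were the only values that crossed. In the deposited values the same tumors lay at 4.83 and 4.74 and the groups did not overlap, as was true of 4.17% of all miRNAs there. The means were 6.44 ± 0.96 (SD, n = 7) and 3.43 ± 0.88 (SD, n = 6), which is a log2 difference of 3.01 (SE 0.51, 95% interval 1.90 to 4.12, fold interval 3.74 to 17.4). The limma adjusted p was 0.00374 and the exact permutation p 0.00175.

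The log2 level of miR-155-5p, made from the transcript of the B-cell integration cluster, ranged from 4.55 to 6.57 in curcumin tumors (median 5.14) and from 2.71 to 4.05 in controls (median 3.67). The groups did not overlap and lay 0.49 apart, with curcumin tumor 5 the lowest of its group and control 5 the highest of its own. Curcumin tumor 7 stood above the others of its group at 6.57, where the next was at 5.46. The means were 5.21 ± 0.69 (SD, n = 7) and 3.47 ± 0.56 (SD, n = 6), a log2 difference of 1.74 (SE 0.35, 95% interval 0.98 to 2.51, fold interval 1.97 to 5.69). The limma adjusted p was 0.00749 and the exact permutation p 0.000583. Complete separation of the diets, with all curcumin values above all control values, was seen for 8.23% of the miRNAs detected on all arrays and for 4.08% of all miRNAs.

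**Figure D1:**
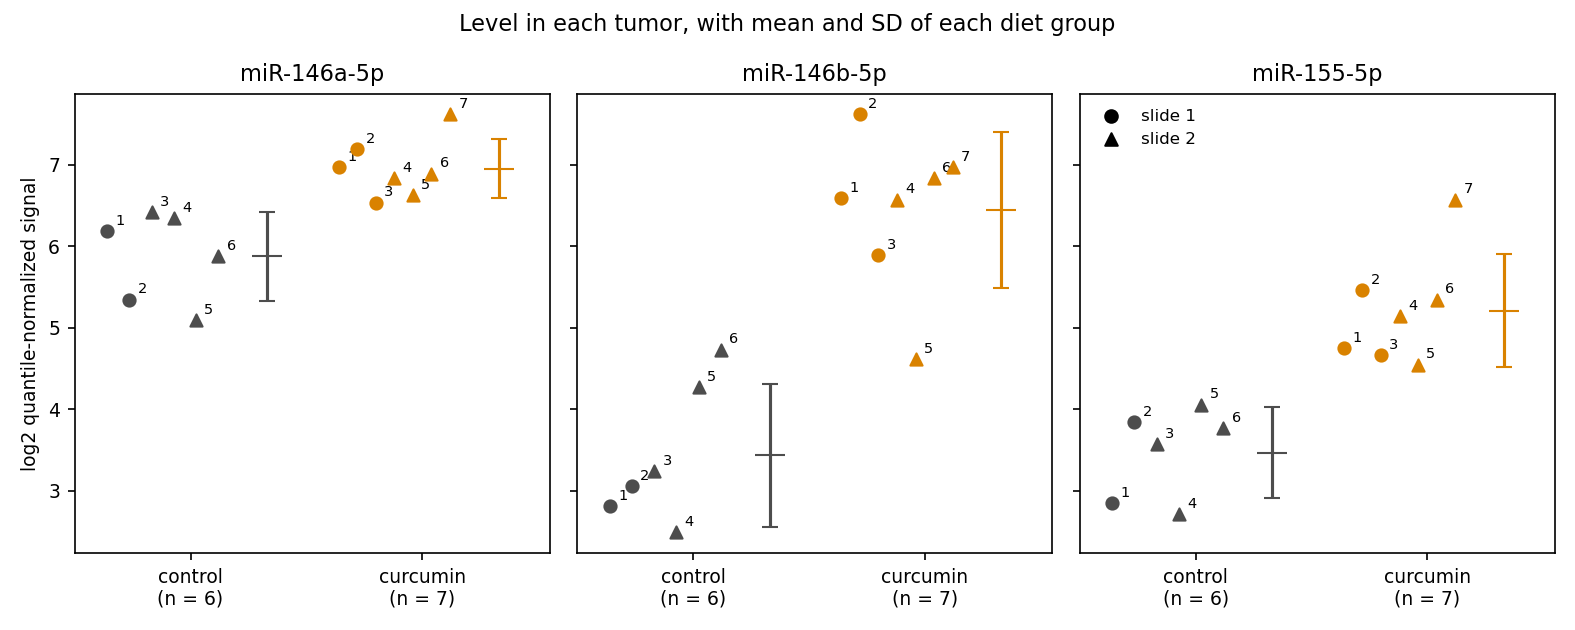
Log2 quantile-normalized signal of each miRNA (vertical axis) in each control and curcumin tumor, with the tumor's number beside its point, the slide given by the symbol, and the group mean ± SD at the right. The groups are apart for miR-146a-5p and miR-155-5p, and curcumin tumor 5 (4.61) lies below control 6 (4.73) for miR-146b-5p.

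Background correction and normalization set how firm these differences are. With a normexp background correction the differences were smaller, at 0.64 for miR-146a-5p, 1.15 for miR-146b-5p and 0.49 for miR-155-5p, and all passed the test, which called 10.1% of all miRNAs higher in these values. Without normalization between arrays they were 1.00, 2.85 and 1.56, and none passed (adjusted p = 0.116, 0.0549 and 0.172), where 0.927% of all miRNAs did so as higher. The signals before normalization overlapped for each miRNA. That of miR-146a-5p was 51.2 to 238.4 in curcumin tumors and 50.6 to 75.6 in controls, that of miR-146b-5p 10.6 to 259.6 and 4.95 to 37.9, and that of miR-155-5p 9.45 to 103.0 and 5.27 to 33.2. The lowest of the curcumin signals was in each case that of tumor 5, whose array also had the lowest summed signal, 114095. Relative to the median difference of the miRNAs detected on all arrays, the log2 differences were 1.17, 3.11 and 1.84 after quantile normalization (median -0.09) and 1.27, 3.11 and 1.82 without normalization (median -0.26).

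**Figure D2:**
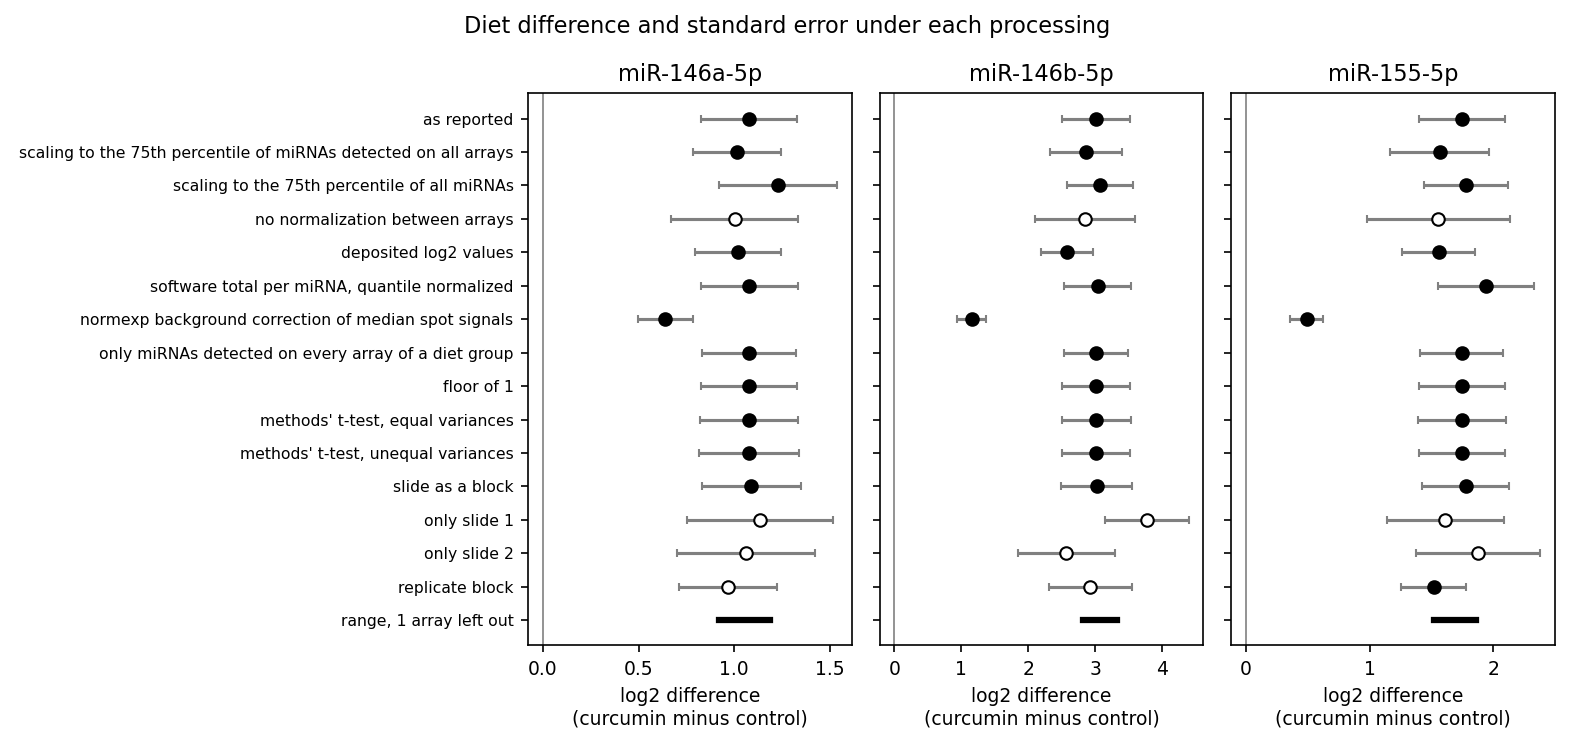
Log2 difference, curcumin minus control (horizontal axis), with its standard error for each miRNA under each processing (rows). Filled points passed an adjusted p of 0.05, open points did not, and the bar at the bottom spans the differences with 1 array left out. All differences are above 0.

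Leaving out 1 array at a time, the log2 difference lay between 0.92 and 1.19 for miR-146a-5p, between 2.82 and 3.32 for miR-146b-5p and between 1.52 and 1.86 for miR-155-5p, and all 13 fits passed for each miRNA. Within slide 1, with 3 curcumin tumors and 2 controls, the differences were 1.14, 3.77 and 1.61. Within slide 2, with 4 of each, they were 1.06, 2.57 and 1.87. On slide 1 all curcumin tumors lay above both controls for each miRNA, where 22.6% of the miRNAs detected on all arrays did so and the exact permutation p was 0.1, the smallest possible. On slide 2 the groups were apart for miR-146a-5p and miR-155-5p (exact permutation p = 0.0286 each, the smallest possible, with 11.9% of the miRNAs detected on all arrays apart in this way) and crossed in curcumin tumor 5 and control 6 for miR-146b-5p (p = 0.0571). Fitted over all miRNAs, neither slide alone called any of the 3 (adjusted p between 0.0892 and 0.314), where slide 1 called 1.3% and slide 2 called 0.0927% of all miRNAs higher.

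The probes of each miRNA gave the same direction. For miR-146a-5p the log2 differences of its probes were 1.13 and 1.22 (limma over all 2754 mouse probes, adjusted p = 0.0164 and 0.0261). For miR-146b-5p the brighter probe differed by 2.83 (SE 0.47, adjusted p = 0.00428). Its dimmer probe had under 3 times its error on 5 of 6 controls and on 1 curcumin tumor, so the fitted difference of 4.37 rests on control signals that were not clearly above background and its size is not firm. For miR-155-5p the values were 1.42 and 1.88 (adjusted p = 0.0311 and 0.00837), and the probe with the smaller difference had under 3 times its error on 4 controls and 1 curcumin tumor. Over all probes 5.95% were higher. The brighter probe of miR-146b-5p held a median of 94.0% of its signal in controls and 83.3% in curcumin tumors, so the sum mostly followed that probe. Whether RNA of 1 miR-146 miRNA also bound to the probes of the other was not tested, since the probe sequences were not used here.

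**Figure D3:**
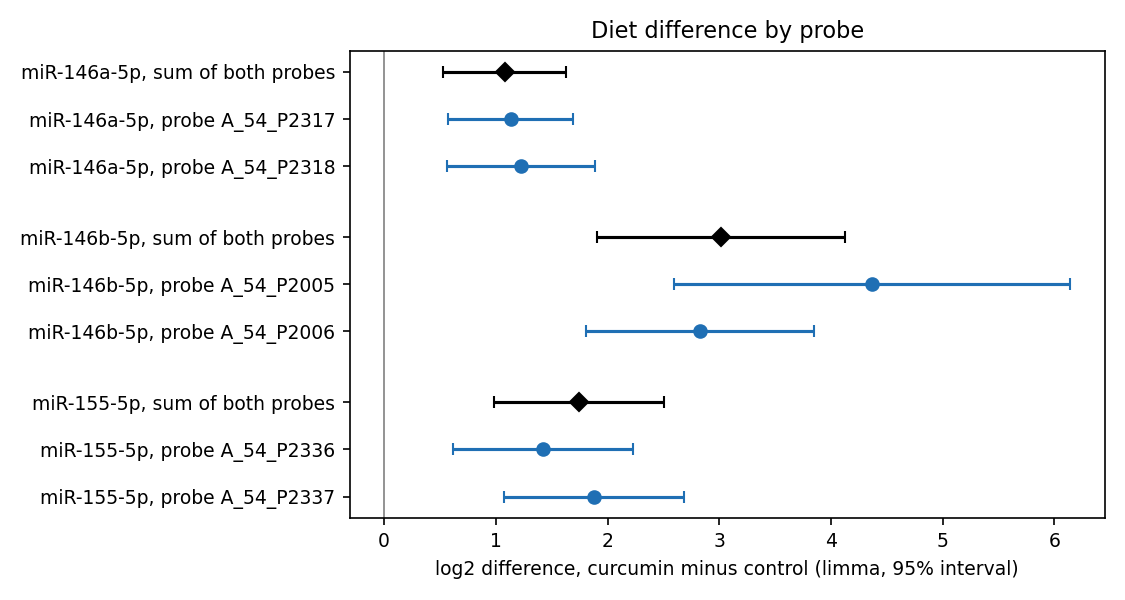
Log2 difference, curcumin minus control (horizontal axis), with its 95% interval from limma, for the sum of both probes of each miRNA (black diamonds) and for each probe alone (blue circles). The probes of miR-146b-5p lie at 4.37 and 2.83 and those of the other miRNAs between 1.13 and 1.88, all with intervals above 0, but the value of 4.37 is set against 5 of 6 controls with under 3 times the probe's error.

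The software's own error, as a share of the software's total per miRNA, was 8.53% to 9.24% for miR-146a-5p, 8.44% to 25.3% for miR-146b-5p and 8.27% to 32.8% for miR-155-5p. The largest were those of controls 1 and 4 for miR-146b-5p and miR-155-5p, the tumors in which these miRNAs were dimmest.

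The size of the diet difference was not the same for the 3 miRNAs. The log2 ratio of miR-146b-5p to miR-146a-5p within a tumor averaged -2.45 ± 1.24 (SD, n = 6) in controls, against -0.51 ± 0.76 (SD, n = 7) with curcumin. As the signals come from different probes, only the change of this ratio can be read. It was 1.94 higher in curcumin tumors (SE 0.56, 95% interval 0.70 to 3.17; exact permutation p = 0.00874, 0.0149 adjusted over the 3 pairs), that is, by 3.82-fold. The ratio to miR-146a-5p ranged from -3.85 to -0.83 in controls, so the signals of the near-identical pair did not keep 1 ratio among tumors of the same diet. The log2 ratio of miR-146b-5p to miR-155-5p was also higher with curcumin, by 1.27 (SE 0.38, 95% interval 0.43 to 2.10; exact permutation p = 0.00991, adjusted 0.0149). For miR-155-5p to miR-146a-5p the difference was 0.67 (SE 0.42, 95% interval -0.25 to 1.59; exact permutation p = 0.142, adjusted 0.142), and without control 5, which had the lowest miR-146a-5p and the highest miR-155-5p of the controls, it was 0.94 and passed (exact permutation, adjusted p = 0.0316). The normexp correction, under which differences at low signal shrink, brought the ratio of miR-146b-5p to miR-146a-5p to 0.51 (adjusted p = 0.0533) and turned that of miR-155-5p to miR-146a-5p to -0.15 (adjusted p = 0.318).

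Among tumors of the same diet, the miRNAs were compared in 6 relations, 3 pairs in each diet. Within curcumin tumors, miR-146a-5p and miR-155-5p rose and fell together (Pearson r = 0.92, exact permutation p = 0.00655, adjusted 0.0393; Spearman rho = 0.86, p = 0.0238, adjusted 0.0476; n = 7). Without tumors 3 and 7, the farthest from the median of miR-146a-5p, r was 0.71. With the arrays scaled to a 75th percentile in place of quantile normalization, r was 0.89 (miRNAs detected on all arrays) and 0.85 (all miRNAs) and did not pass (exact permutation, adjusted p = 0.0857 and 0.0667). The rank order of miR-146b-5p was also close to that of both others, with a Spearman rho of 0.89 against miR-146a-5p (exact permutation p = 0.0123, adjusted 0.0369) and 0.93 against miR-155-5p (p = 0.00675, adjusted 0.0369), while Pearson's r was 0.68 (exact permutation p = 0.103, adjusted 0.154) and 0.63 (p = 0.142, adjusted 0.170). Without the 2 tumors farthest from the median of miR-146a-5p for the former pair, and of miR-146b-5p for the latter, these r were 0.92 and 0.74.

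Within controls, Pearson's r was -0.49 for miR-146a-5p and miR-146b-5p (exact permutation p = 0.3, adjusted 0.3; rho = -0.43, p = 0.419, adjusted 0.419; n = 6). It was -0.75 for miR-146a-5p and miR-155-5p (exact permutation p = 0.0931, adjusted 0.154; rho = -0.83, p = 0.0583, adjusted 0.0875). It was 0.75 for miR-146b-5p and miR-155-5p (exact permutation p = 0.0903, adjusted 0.154; rho = 0.71, p = 0.136, adjusted 0.163). Without the 2 farthest tumors these r were -0.82, -0.44 and 0.86. No relation passed in controls, and whether the relations differ between the diets was not tested. All points share the normalization across the 13 arrays, and as a slide held at most 4 tumors of a diet, no correlation was computed within a slide.

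**Figure D4:**
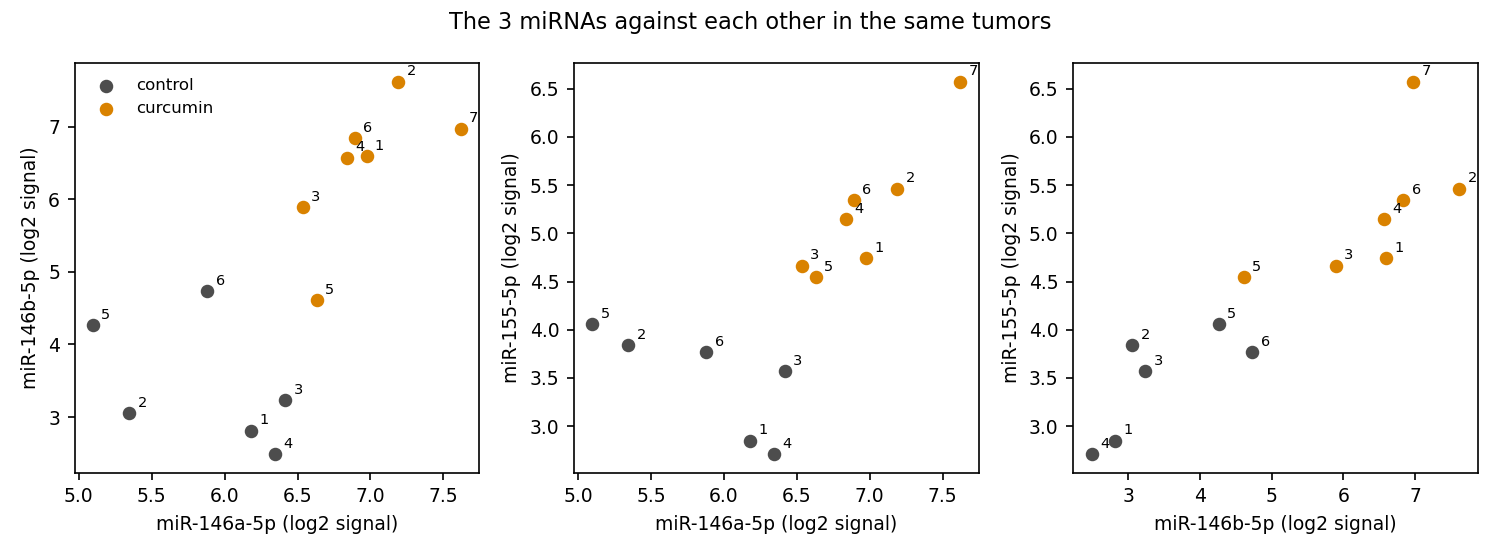
Log2 signal of the miRNAs against each other, with a point for each tumor labelled by its number (grey, control; orange, curcumin). Curcumin tumors run from lower left to upper right in each panel, with r between 0.63 and 0.92, and in controls both panels with miR-146a-5p run the other way, with r of -0.49 and -0.75.

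The other strand of each hairpin, miR-146a-3p, miR-146b-3p and miR-155-3p, is usually degraded when the 5p strand is loaded into the silencing complex. All 3 were detected on none of the 13 arrays and had a background-subtracted signal below 0 on each, so they had no measured difference. In all alternatives none of them passed the test.

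Other miRNAs known to respond to NF-κB or to Toll-like receptors were examined as a list of 11. No direction of response was set for them, so a count of those higher does not count responses to NF-κB. With curcumin 4 of them were higher and none lower, where 8.34% of all miRNAs were higher, and their median log2 difference was 0.12 (0.00 over all miRNAs). Of the 8 detected on all arrays, miR-21-5p and miR-125b-5p were higher, where 20.2% of all miRNAs so detected were. The median difference of these 8 was 0.06, against -0.09 for all miRNAs detected on all arrays. Among those that rose, miR-21-5p, an abundant miRNA of tumors and inflamed tissue, was higher by 2.57 (SE 0.54, adjusted p = 0.00939), and miR-125b-5p, which lowers tumor necrosis factor, by 1.90 (SE 0.26, adjusted p = 0.00179). The clustered miR-221-3p and miR-222-3p also passed. miR-221-3p was higher by 2.80 (SE 0.39, adjusted p = 0.00179) with detection in 4 of 6 controls. The software detected miR-222-3p in 2 of 6 controls and in 6 of 7 tumors with curcumin, and its call held in 4 of the 13 fits with 1 array left out. Without normalization miR-21-5p, miR-125b-5p and miR-221-3p passed (limma, adjusted p = 0.0387, 0.0404 and 0.0493), where 0.927% of all miRNAs were higher.

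The other 7 did not pass. Both strands of the miR-9 hairpin, which is induced by bacterial lipopolysaccharide, had log2 differences of 0.12 (5p) and 0.51 (3p, adjusted p = 0.119). The neighbors miR-132-3p and miR-212-3p, which lie in 1 cluster and are induced early by Toll-like receptor 4, had values of -0.09 and 0.01. miR-301a-3p, which raises NF-κB activity, had -0.38 (adjusted p = 0.107). miR-34a-5p, best known as a target of p53, had -0.74 (adjusted p = 0.0663) and passed as lower in 4 of the 28 alternatives, among them the deposited values and the fit without curcumin tumor 5. miR-147-3p was detected on no array.

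**Figure D5:**
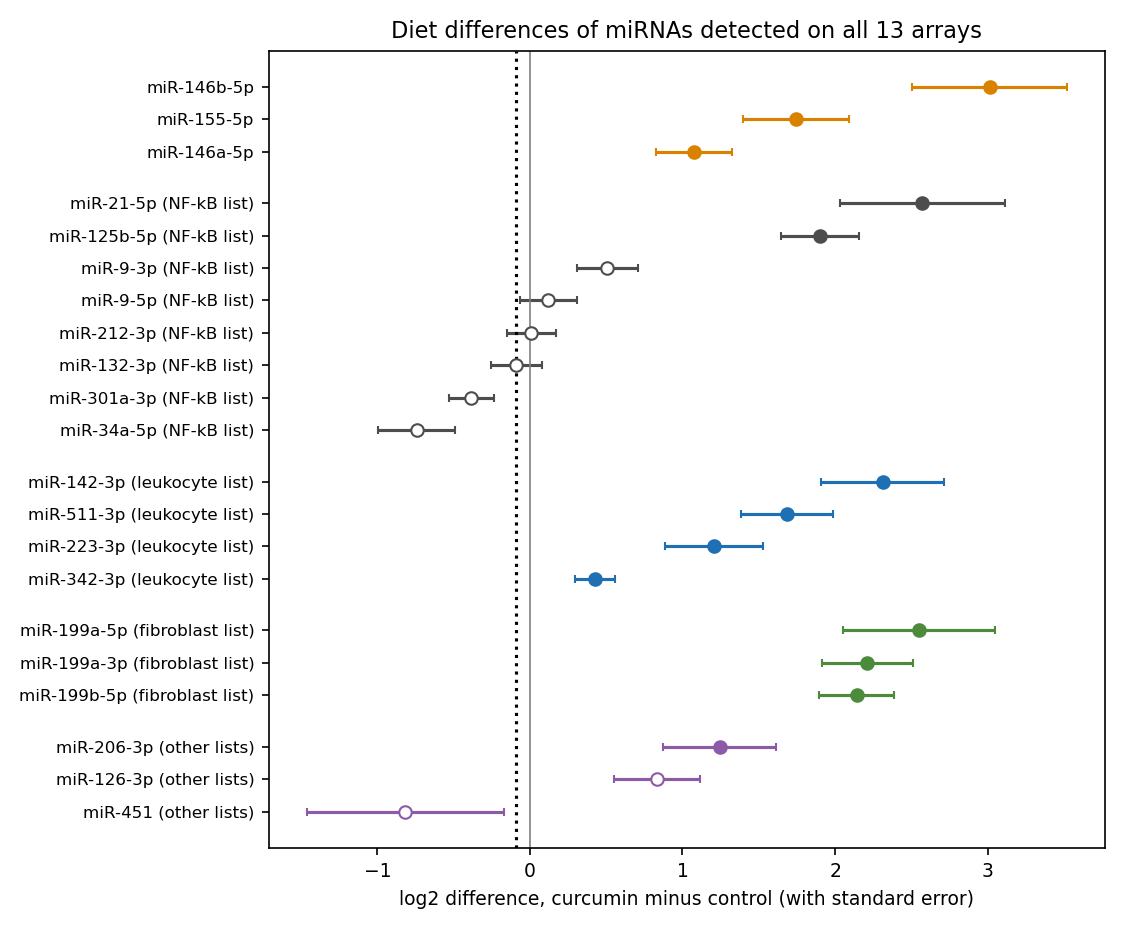
Log2 difference, curcumin minus control (horizontal axis), with its standard error for miR-146a-5p, miR-146b-5p, miR-155-5p and those listed miRNAs that were detected on all 13 arrays. Filled points passed an adjusted p of 0.05, and the dotted line marks the median of all miRNAs detected on all arrays (-0.09). Of the NF-κB list, miR-21-5p and miR-125b-5p lie with the 3 miRNAs and the other 6 shown lie between -0.74 and 0.51.

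Because miR-146a and miR-155 are abundant in blood cells, markers of the cell types a flank tumor can hold were read beside them. Of 7 leukocyte miRNAs 6 were higher with curcumin (median log2 difference 1.69), where 8.34% of all miRNAs and 20.2% of those detected on all arrays were higher. Their summed normalized signal was 635 to 1883 in curcumin tumors and 326 to 552 in controls, without overlap. Single miRNAs were apart in this way in 8.23% of those detected on all arrays and 4.08% of all, and no share was computed for sums. The sum mostly follows its brightest members, miR-342-3p, miR-142-3p and miR-223-3p (mean log2 8.19, 8.18 and 7.55 in curcumin tumors). miR-142-3p, found in all blood cells, was higher by 2.31 (SE 0.40, adjusted p = 0.00407), the macrophage miRNA miR-511-3p by 1.69 (SE 0.30, adjusted p = 0.00450) and the neutrophil and monocyte miRNA miR-223-3p by 1.21 (SE 0.32, adjusted p = 0.0295). miR-342-3p was higher by 0.42 (adjusted p = 0.0471). miR-142-5p was detected in 7 curcumin tumors and 3 controls and the lymphocyte miRNA miR-150-5p in 6 curcumin tumors and no control, while miR-511-5p was detected on no array. With 1 array left out, miR-223-3p passed in 8 of 13 fits and miR-342-3p in 3. Without normalization 1 of the 7, miR-142-3p, passed, where 0.927% of all miRNAs were higher.

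The lists of other cell types stand against the same shares, 8.34% of all miRNAs and 20.2% of those detected on all arrays. Of 4 fibroblast miRNAs 3 were higher, miR-199a-3p by 2.21, miR-199a-5p by 2.55 and miR-199b-5p by 2.14. The summed signal of the 4 was 701 to 1567 in curcumin tumors and 163 to 504 in controls. miR-214-3p did not pass (limma, adjusted p = 0.0501), but passed as higher in 8 of 28 alternatives, among them the deposited values. Without normalization miR-199a-3p and miR-199b-5p passed (limma, adjusted p = 0.0344 and 0.0286), where 0.927% of all miRNAs were higher. Of 7 epithelial miRNAs only miR-205-5p was higher, detected in 7 curcumin tumors and 3 controls and passing in 6 of the 13 fits with 1 array left out, and the miR-200 family members miR-141-3p, miR-200a-3p, miR-200b-3p, miR-200c-3p and miR-429-3p were detected on no array. miR-203-3p, detected in 5 curcumin tumors and 2 controls, differed by 0.79 and did not pass (limma, adjusted p = 0.0517), but passed as higher in 6 of 27 alternatives. The summed epithelial signal was 218 to 1739 in curcumin tumors and 3.28 to 165 in controls. In curcumin tumors this sum was nearly all miR-205-5p (log2 7.75 to 10.8, against 1.87 to 3.53 for miR-203-3p). Of 4 skeletal muscle miRNAs 1 was higher, miR-206-3p by 1.24 (adjusted p = 0.0423), which passed in 2 of the 13 fits with 1 array left out. The sums of these 4 were 29.1 to 962 and 23.3 to 607 and overlapped. The endothelial pair miR-126-3p and miR-126-5p did not pass (0.83 and 0.96, limma, adjusted p = 0.0647 and 0.0758). miR-126-3p passed as higher in 8 of 28 alternatives and miR-126-5p in 0 of 27. The sums of this pair were 254 to 820 in curcumin tumors and 137 to 281 in controls. The erythroid pair miR-451 and miR-144-3p did not pass either (sums 45.4 to 277 and 39.9 to 714).

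Of the 2 melanocytic miRNAs, which check the label of the tumors, miR-211-5p was detected in all 6 controls and in 4 of 7 curcumin tumors and was lower with curcumin (adjusted p = 0.0305, passing in 7 of the 13 fits with 1 array left out), where 7.51% of all miRNAs were lower. miR-204-5p was detected in 3 controls and no curcumin tumor and did not pass. Their summed signal was 4.19 to 624 in curcumin tumors and 308 to 847 in controls. The part of these cell types in the differences of miR-146a-5p, miR-146b-5p and miR-155-5p was not tested.

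Taken over all 13 tumors after the mean of each diet had been removed, the deviations of miR-155-5p were most like those of leukocyte miRNAs. Among the 239 miRNAs compared, the highest Pearson r with it were those of miR-511-3p (0.89), miR-142-3p (0.86) and miR-223-3p (0.85). For miR-146b-5p they were those of miR-29a-3p and miR-29b-3p (0.92 each), which target collagens, and miR-338-3p (0.91). For miR-146a-5p they were those of miR-301a-3p (0.81), miR-101a-3p (0.79) and miR-342-3p (0.78). Between miR-146b-5p and miR-155-5p r was 0.67, and between miR-146a-5p and the others it was 0.05 and 0.08. The values of 0.05 and 0.08 pool diets with r of opposite sign, 0.68 and 0.92 in curcumin tumors and -0.49 and -0.75 in controls. The median r of the compared miRNAs was 0.15 with miR-146a-5p, -0.20 with miR-146b-5p and -0.22 with miR-155-5p. The points of each of these correlations share the arrays and their normalization, and they describe these 13 tumors.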

How the data were processed

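RNA of 13 tumors was hybridized in 1 color, 1 array per tumor. The intensity values came from Agilent's Feature Extraction software, version 10.10.1.1, as run by the authors, in which background is subtracted and the replicate spots of a probe are combined into 1 total probe signal, described in the study's methods as an average. No scaling of 1 array to another is part of these values. The deposited log2 values are quantile normalized and were used as an alternative.

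Probe signals were summed for each of the 1079 mouse miRNAs and quantile normalized (limma 3.58.1, R 4.3.3). Values at or below 0 (51.6% of the sums) got a floor of 0.00765, the lowest normalized value above 0, and log2 was then taken. The diets were compared with limma (two-sided, no covariates, Benjamini-Hochberg, threshold 0.05), single values and ratios with exact permutation tests, and single probes with limma over 2754 probes. The limma step alone was tested on simulated log2 values with independent normal spread, in which 200 miRNAs were raised or lowered by 2. It recovered 53.5% of them, and 93.4% of those detected on all arrays, with 3 false calls among 110. No smaller change was simulated, nor were the summing, the normalization, the floor or a spread shared by the miRNAs of an array. The 57 virus miRNAs were left out. No pair of arrays held equal values. The number of arrays limits the precision.

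Groups came from the labels. The members, lists and tests were chosen with earlier results of these data known. Named were the 3 miRNAs, their other strands, the listed miRNAs and, for each of the 3, the 3 most alike among miRNAs detected on all arrays. On the array mmu-miR-451a is called mmu-miR-451. Alternatives were other scalings, the deposited values, the software's total per miRNA, normexp (offset 50, on median spot signals, chosen after seeing the data because no mean signals were in the files used), a floor of 1, the methods' t-test, a filter on dim miRNAs, the slide or replicate number as a block, each slide alone, and each array left out.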

Additional observations from a re-analysis of the deposited data

How the results depend on the processing

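All 3 diet differences kept their direction in the 28 alternatives run for each, and passed with each array left out (0.92 to 1.19 for miR-146a-5p, 2.82 to 3.32 for miR-146b-5p, 1.52 to 1.86 for miR-155-5p; highest adjusted p 0.0382, 0.0114 and 0.0185). Without normalization between arrays they were 1.00, 2.85 and 1.56 (adjusted p = 0.116, 0.0549, 0.172; unadjusted 0.0113, 0.00265, 0.0207). Within slide 1 they were 1.14, 3.77 and 1.61, and within slide 2 they were 1.06, 2.57 and 1.87, none passing with fewer arrays, while with the slide as a block all passed. The ratio of miR-146b-5p to miR-146a-5p changed by 0.51 with normexp, 2.63 on slide 1 and 1.51 on slide 2, and that to miR-155-5p by 2.16 and 0.70, none of which passed. On slide 1 the exact permutation test cannot give a p below 0.1, so no ratio could pass there. The ratio of miR-155-5p to miR-146a-5p reversed to -0.15 with normexp and ranged from 0.42 to 0.94 with 1 array left out, passing only without control 5. The correlation of miR-146a-5p and miR-155-5p in curcumin tumors fell to 0.89 and 0.85 with the 75th percentile scalings and did not pass (exact permutation, adjusted p = 0.0857 and 0.0667). Without normalization 3 others passed, 0.90 for both miR-146 miRNAs and 0.86 for miR-146b-5p and miR-155-5p in curcumin tumors, and 0.89 for the latter pair in controls. The cause of these changes was not tested.

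Of all miRNAs 171 passed, 52.6% of them higher. The count was 105 (69.5% higher) when scaled to the 75th percentile of all miRNAs, 49 (20.4%) without normalization, 102 with the software's totals, 34 (41.2%) and 3 within the slides, and 164 (41.5%) with the filter on dim miRNAs. It was above 171 with the deposited values (226, of which 103 higher and 123 lower, against 90 and 81), the methods' t-test (216 with equal and 193 with unequal variances) and normexp (193). With 1 array left out it was 103 to 184, with the lowest counts without curcumin tumor 6 or control 4.

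The labels do not say whether the replicate numbers pair the tumors. The correlation of same-numbered tumors' deviations was -0.30 to 0.20, and 0 of 6 controls correlated best with its own number. These 6 values were not tested and cannot decide whether the tumors were paired. With the replicate block, which drops curcumin tumor 7, the differences were 0.97 (adjusted p = 0.0876), 2.92 (0.0538) and 1.52 (0.0398), the ratios of miR-146b-5p to the others 1.96 and 1.41 (0.141 each), and 67 miRNAs passed (67.2% higher). Without the block all 3 passed on the same 12 arrays, an alternative chosen after seeing the data.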
